A study of Mus musculus with 3 samples.

Results

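Mir33, Mir378a and Mir210 are 3 mouse miRNA hairpins whose mature products are known for links to metabolism. They were chosen by name, and were found in the alignments by their hairpin sequence, out of 205 hairpins that could be laid on the genome in this way. The data are small RNA-seq reads from MIN6 cells, a mouse insulinoma line derived from pancreatic beta cells of a transgenic mouse that expressed the SV40 T antigen, which was grown at 25 mM glucose in DMEM with fetal bovine serum. The 3 libraries are biological replicates of this 1 condition, so the levels describe 1 cell line at 1 glucose concentration, and no other condition was compared. Each library held 9269795 to 10816006 mapped reads, and 0 reads of a miRNA allow at most 3 reads, or 0.277 to 0.324 RPM (reads per 1000000 mapped reads). Values are given as the mean ± SD over the libraries, and no test was made between libraries. miR-375, the miRNA that marks beta cells, had the most abundant of the placed 5′-starts in these libraries, and all starts of its hairpin summed to 365698 RPM.

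A miRNA hairpin is cut by Drosha and Dicer into a duplex of a 5p and a 3p strand, and the strand that is loaded into an Argonaute protein recognizes its targets mainly through the seed, bases 2 to 8 from the 5′-end. A 5′-shifted isomiR starts upstream (-) or downstream (+) of the 5′-reference miRNA and therefore carries a different seed, while the 3′-end can be trimmed or extended by 3′ non-templated additions (3′-NTAs) without changing it. Mir33 lies on the same strand in an intron of Srebf2, which encodes a transcription factor of cholesterol synthesis, and miR-33 is known to repress the cholesterol transporter ABCA1. Mir378a lies on the same strand in an intron of Ppargc1b, which encodes the coactivator PGC-1β, and it has been linked to mitochondrial metabolism. No other gene of the annotation used here (GENCODE vM21) overlapped Mir210, which is known as a target of hypoxia-inducible factor and represses the iron-sulfur cluster scaffold ISCU.

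In the mm9 build of the alignments, Mir33 spanned chr15:82028552-82028620 on the plus strand and Mir210 spanned chr7:148407283-148407392 on the minus strand. Mir33 was the less certain of these placements, since the bases that mismatches exclude gave it 12.7 bits, below the threshold of 20 bits. Mir210 reached 84.0 bits. The annotated 5p start of Mir33 was laid on 141 starts, and the one with the most bits was taken. Of the positions without a conflicting base, only 1, the one taken, also had at least 10 reads at the 3p start in every library. The sequences of the Mir33 and Mir210 products are shown because their 5′-starts set the seeds and because their 3′-ends carried the additions described below. They were taken from the RefSeq miRNA table (GRCm38.p6), and those of the 5′-shifted isomiRs were read from the RefSeq hairpin up to the annotated 3′-end. Capitals mark the seed.
miR-33-5p: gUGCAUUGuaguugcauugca
miR-33-5p+4: aUUGUAGUugcauugca
miR-33-3p: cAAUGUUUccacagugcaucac
miR-210-5p: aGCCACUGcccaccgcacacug
miR-210-3p: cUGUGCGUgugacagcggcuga
miR-210-3p-1: aCUGUGCGugugacagcggcuga

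The 4 5′-reference seeds shown were each found in no other mouse mature miRNA of that table. The seeds of miR-210-3p-1 (CUGUGCG) and of miR-33-5p+4 (UUGUAGU) were found in 0 of its mature miRNAs. Counted per arm, reads were found at 48 5′-starts of the 3 hairpins, and hairpin position 51 of Mir210 was counted on both arms. Of these starts, 11 had at least 10 reads in every library, compared with 877 such starts over all placed hairpins. The other starts are described only as counts.

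Mir378a spanned chr18:61557489-61557554 on the minus strand of mm9, and its sequences are not printed. On the opposite strand the annotation holds another miRNA gene, Gm25301, whose reads are kept apart by strand.

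miR-210-3p and miR-378a-3p were the most abundant products of the 3 hairpins, and miR-33-5p was present at a far lower level. miR-210-3p was measured at 1337 RPM in replicate 1, 1120 RPM in replicate 2 and 1004 RPM in replicate 3 (1154 ± 169 RPM, SD, n = 3). miR-378a-3p was measured at 1129, 1106 and 1122 RPM in the same order (1119 ± 11.9 RPM). Their order changed between the libraries. The ratio of miR-210-3p to miR-378a-3p was 1.18, 1.01 and 0.895, so the levels did not differ beyond the spread between libraries. They occupied neighbouring ranks, 54 and 55, by mean RPM among the placed starts, between miR-423-3p at 1230 RPM and miR-434-3p at 1078 RPM. RPM values of different miRNAs also depend on how well each one was ligated and amplified, and the part of this in their order was not tested.

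miR-210-5p, the opposite strand of miR-210-3p, followed at 263, 244 and 214 RPM (240 ± 24.6 RPM). The 5′-shifted isomiR miR-210-3p-1 was measured at 198, 180 and 158 RPM (179 ± 20.1 RPM), below miR-210-5p in every library and without overlap. miR-378a-3p+1 was measured at 93.3, 80.3 and 84.0 RPM (85.8 ± 6.69 RPM). These intermediate forms were thus separated from each other in all libraries.

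miR-33-5p, the strand of Mir33 known for repression of cholesterol export, was measured at 22.2, 16.7 and 21.7 RPM (20.2 ± 3.04 RPM), from 206, 181 and 222 reads. It was lowest in replicate 2, and on average miR-378a-3p was 56.2 ± 8.59 times as abundant within a library. Its neighbours in level were miR-485-5p at 20.8 RPM and miR-340-5p at 20.2 RPM, from which it did not differ beyond its spread. miR-33-3p was measured at 6.26, 6.75 and 7.24 RPM (6.75 ± 0.49 RPM), from 58, 73 and 74 reads. miR-378a-5p was measured at 5.07, 4.81 and 4.40 RPM (4.76 ± 0.34 RPM), from 47, 52 and 45 reads, and was below miR-33-3p in every library. The remaining starts with 10 or more reads were near the limit of detection. miR-378a-3p-1 reached 2.80 ± 0.34 RPM, and the levels of miR-33-5p+4 (1.51 ± 0.24 RPM) and miR-210-3p+1 (1.51 ± 0.24 RPM) overlapped.

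**Figure D1:**
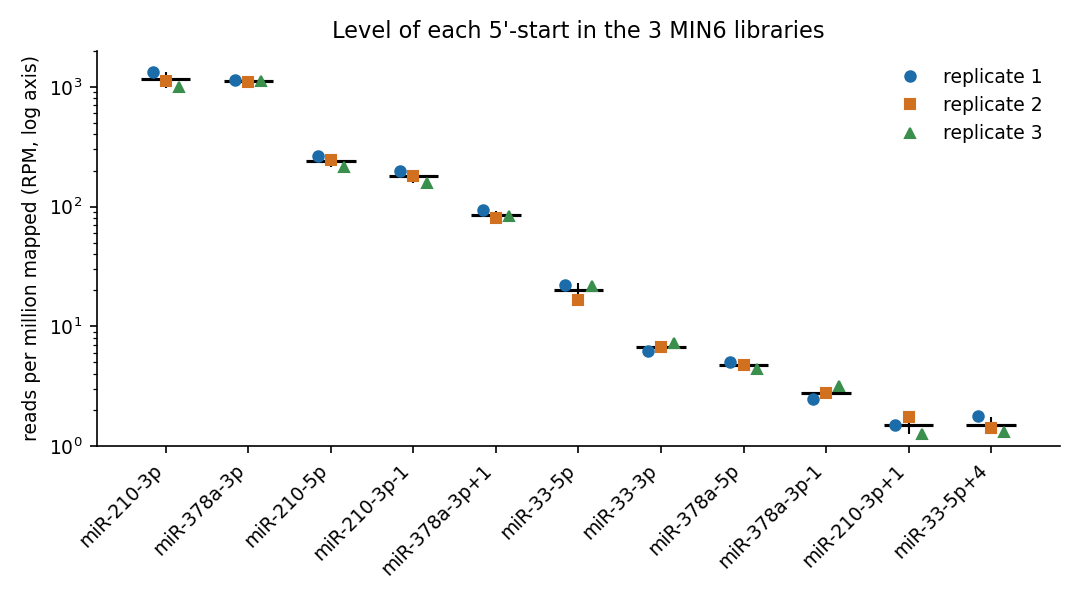
Level of the 11 starts of Mir33, Mir378a and Mir210 with at least 10 reads in every library, in RPM on a log axis. Symbols are the 3 libraries, horizontal lines the mean and vertical lines the SD, and the levels run from 1154 RPM for miR-210-3p to 1.51 RPM for miR-33-5p+4.

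The spread between libraries differed widely among the members. The coefficient of variation (CV) of miR-378a-3p was 1.06%, the lowest among 176 starts of placed hairpins with at least 1000 reads in every library, whose median was 7.21%. This was close to the counting error of 0.942% that its read numbers give alone. A CV from 3 values is itself imprecise. miR-210-3p, sequenced as deeply, had a CV of 14.6%, above 89.8% of these starts and 15.7 times its counting error of 0.931%. The 176 starts had a median ratio of observed CV to counting error of 5.12. A ratio below 2 was found for 18 of them, with miR-378a-3p, at 1.13, among these.

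All forms of miR-210 with more than 1000 reads were highest in replicate 1 and lowest in replicate 3. The ratios within the hairpin varied less than the levels. miR-210-3p was 5.09, 4.59 and 4.70 times as abundant as miR-210-5p (CV 5.46%), and miR-210-3p-1 was 0.148, 0.161 and 0.158 times as abundant as miR-210-3p (CV 4.25%). The labels give no date or batch for the libraries, and what moved with the level of miR-210 was not tested. The CV of miR-33-5p was 15% at a counting error of 7.04%, and that of miR-33-3p was 7.30% at a counting error of 12.2%, so for the latter the depth limited the precision.

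**Figure D2:**
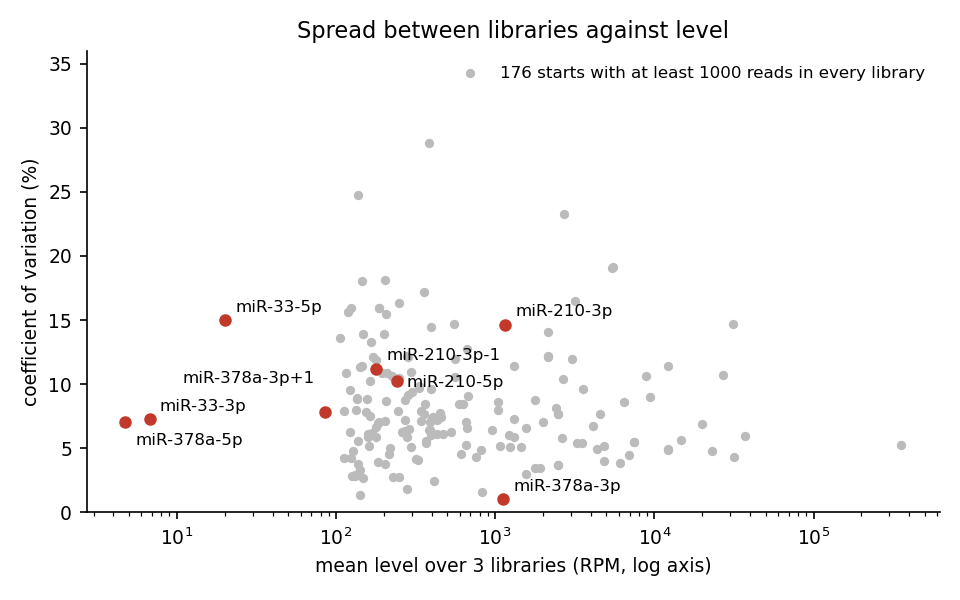
Coefficient of variation over the 3 libraries against mean level in RPM (log axis). Gray points are the 176 starts with at least 1000 reads in every library, of any placed hairpin, and red points are the labelled starts of Mir33, Mir378a and Mir210. miR-378a-3p lies at the bottom, at 1.06%, and miR-210-3p at 14.6%.

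The hairpins differed in which arm gave the reads. In Mir378a nearly all reads came from the 3p arm, and the 5p arm held 0.451%, 0.418% and 0.387% of the reads (95% Wilson intervals from 0.292% to 0.597%, which cover counting error only). In Mir210 the 5p arm held 14.7%, 15.8% and 15.6% (15.4 ± 0.60%). In Mir33 the 5p arm was the more abundant one, with 80.2%, 73.2% and 76.9% of the reads (76.8 ± 3.48%), and the Wilson intervals of the libraries lay between 67.7% and 84.4% and overlapped. The 3 hairpins did not overlap in this share. Over 148 hairpins with at least 1000 reads on their arms in every library, the more abundant arm held a median of 98.6% of the reads (quartiles 90.2% and 99.9%). The shares of Mir210 and Mir33 were thus less one-sided than the lower quartile. Mir33 itself had fewer than 1000 reads in every library, so it was set against hairpins sequenced more deeply.

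Folded with RNAfold, the hairpins had minimum free energies of -32.2 kcal/mol (Mir33), -38.5 kcal/mol (Mir378a) and -48.0 kcal/mol (Mir210). The most abundant matching forms of both arms left a 3′-overhang of 2 nt at each end of the duplex for Mir378a and for Mir210. For Mir33, whose most abundant matching forms were 19 nt for miR-33-3p and 20 nt for miR-33-5p, the 3′-overhangs were 0 nt at the end of the 3p strand and 1 nt at the end of the 5p strand. These Mir33 forms did not lead in every library. By matching part, tailed reads included, miR-33-3p had 28, 33 and 34 reads at 19 nt and 26, 36 and 31 at 21 nt. miR-33-5p had 86, 72 and 82 reads at 20 nt and 61, 62 and 86 at 21 nt. The Mir33 overhangs thus depend on the ends chosen.

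Reads just outside the duplex were found at Mir33. Upstream of miR-33-5p, 14.3, 12 and 10 reads were counted, and 12, 12 and 10 of them ended at the base before the 5p start. Downstream of miR-33-3p, 15, 6 and 8 reads of 20 to 38 nt started at hairpin position 67, next to the most common matching 3′-end of its longer form, at position 66. These reads abut the mature ends on both sides and are few beside the 181 to 222 reads of miR-33-5p.

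Each arm had 1 main 5′-start, and the 3p arms of Mir210 and Mir378a also had a 5′-shifted isomiR of some abundance. miR-210-3p held 86.3 ± 0.51% of its arm, and miR-210-3p-1 held most of the rest. Its share was 12.9%, 13.8% and 13.6% of the arm. miR-378a-3p held 92.6 ± 0.44% of its arm, beside miR-378a-3p+1 with 7.61%, 6.75% and 6.94% (7.10 ± 0.45%). The shift thus went upstream in miR-210-3p and downstream in miR-378a-3p. miR-210-5p held 99.3 ± 0.12% of its arm. Among 164 arms with at least 1000 reads in every library, the most abundant start held a median of 98.7% of the reads, and 17.7% of these arms had a lower share than miR-210-3p and 22% a lower share than miR-378a-3p.

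miR-33-5p held 89.1 ± 1.19% of its arm, and miR-33-5p+4 held 7.03%, 7.65% and 5.48%. The shifted form was 17 nt in 98.0% of its reads and its matching part ended at the last base of the 21-nt miR-33-5p in 94.8 ± 4.68%, so that the start was shifted while the 3′-end was shared. With 13.5 to 16.5 reads per library, its shares have Wilson intervals that reach from 3.42% to 12.5%. miR-33-3p held 99.5 ± 0.78% of its arm.

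The forms differed in how far their lengths were spread. miR-210-5p was 22 nt in 95.5 ± 0.57% of its reads. miR-210-3p was 22 nt in 66.7 ± 0.63% and 20 nt in 12.6 ± 0.32%, and miR-210-3p-1 was 23 nt in 48.1 ± 2.45% and 21 nt in 34.2 ± 1.76%. miR-378a-3p was 22 nt in 69.2 ± 1.15%, 21 nt in 16.4 ± 1.09% and 23 nt in 10.5 ± 0.61%. miR-33-5p was spread over 19 nt (24.8 ± 1.86%), 20 nt (39.2 ± 3.10%) and 21 nt (35.7 ± 4.98%). miR-33-3p fell into distinct classes of 19 nt (46.5 ± 1.60%) and 22 nt (39.0 ± 4.44%), with few reads in between.

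3′-NTAs, counted as reads whose last base mismatches the genome, were frequent on the 3p strands of Mir210 and Mir33 and rare on their 5p strands. They made up 26.6%, 28.4% and 27.6% of miR-210-3p (27.5 ± 0.91%) and 40.2%, 45.7% and 42.3% of miR-210-3p-1 (42.7 ± 2.82%). In miR-210-5p they made up only 1.03%, 1.44% and 1.14%. The values of the arms did not overlap, and miR-210-3p-1 was above miR-210-3p in every library. miR-33-3p had 39.7%, 47.9% and 39.2% (42.3 ± 4.93%), from 23, 35 and 29 such reads, and miR-33-5p had 2.43%, 2.76% and 2.70%, from 5 or 6 such reads. miR-378a-3p lay between, at 14.7%, 13.9% and 12.7% (13.8 ± 1.00%), and miR-378a-3p+1 was above it at 20.1 ± 0.67%. The median over the 176 starts was 8.03% (quartiles 2.64% and 21%), and 90.9% of them lay below miR-210-3p-1 and as many below miR-33-3p.

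The added bases were mainly uridines. Tails of U alone made up 80.6 ± 0.89% of the 3′-NTAs of miR-210-3p, 90.1 ± 2.02% of those of miR-210-3p-1 and 92.5 ± 6.96% of those of miR-33-3p. In miR-378a-3p, U tails made up 63.0 ± 3.70% and A tails 33.3 ± 3.36%. In miR-210-3p a single U was carried by 22.1 ± 0.96% of all its reads, compared with 38.2 ± 3.28% of miR-210-3p-1 and 39.1 ± 5.05% of miR-33-3p.

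In miR-210-3p, miR-210-3p-1 and miR-33-3p, these tails were concentrated on 1 matching end. In miR-210-3p, 82.8 ± 0.35% of the reads whose matching part was 21 nt carried a tail, compared with 4.75 ± 0.66% at 20 nt and 8.33 ± 0.068% at 22 nt. In miR-210-3p-1, which starts 1 base earlier, the end at the same hairpin position (86) was tailed in 89.2 ± 0.98% of its reads, and the end 1 base before it in 4.71 ± 1.04%. Reads of both 5′-starts that end 1 base short of the annotated 3′-end were therefore mostly tailed. The 22-nt class of miR-210-3p was accordingly a mixture, in which 69.4% of the reads had a matching last base. The commonest terminal mismatches were A22T in 20.4 ± 0.90% of miR-210-3p and A23T in 36.6 ± 3.45% of miR-210-3p-1, written with the genome base first, the position counted from 1 at the 5′-end of the read, and T for U. A U after the annotated end of miR-210-3p matches the hairpin, whose next base is U, and would not be counted as an addition, so its tailing at 22 nt may be understated.

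In miR-33-3p the contrast was as wide. Of the reads with a matching part of 21 nt, 22 of 26, 33 of 36 and 29 of 31 carried a tail (89.9 ± 4.71%), while 0 of 28, 0 of 33 and 0 of 34 reads of 19 nt did so, although a U would have been seen there, since the next hairpin base is C. No read of the annotated 22-nt form of miR-33-3p with its last base C was found. Reads that ended at that base, hairpin position 67, carried T in 22, 32 and 25 cases and C in 0 cases, whereas the 15, 6 and 8 reads that began at the same position all carried C. Both kinds of read thus covered the same genomic base, and beside the reads that ended there a T was found in 3 reads of replicate 3 that ran past it.

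In miR-378a-3p the matching ends of 21 nt and 22 nt were tailed in 14.2 ± 2.23% and 13.3 ± 0.79% of reads, and that of 24 nt, with 2.33% of all reads, in 36.6 ± 1.5%. These shares were below the tailed ends of miR-210-3p and miR-33-3p, and the matching end of 22 nt held 76.9 ± 1.40% of all reads. The end of 24 nt, with 233.5, 285.5 and 272.5 reads, is not a plain match. Inside the reads, base 23 was A for the genomic C in 174, 213.5 and 214 reads and T in 44.5, 48.5 and 50.5. Only mismatches that run to the last base were counted as tails. Bases added to the 22-nt end may thus be counted as matching, and tailing at 22 nt may be understated.

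**Figure D3:**
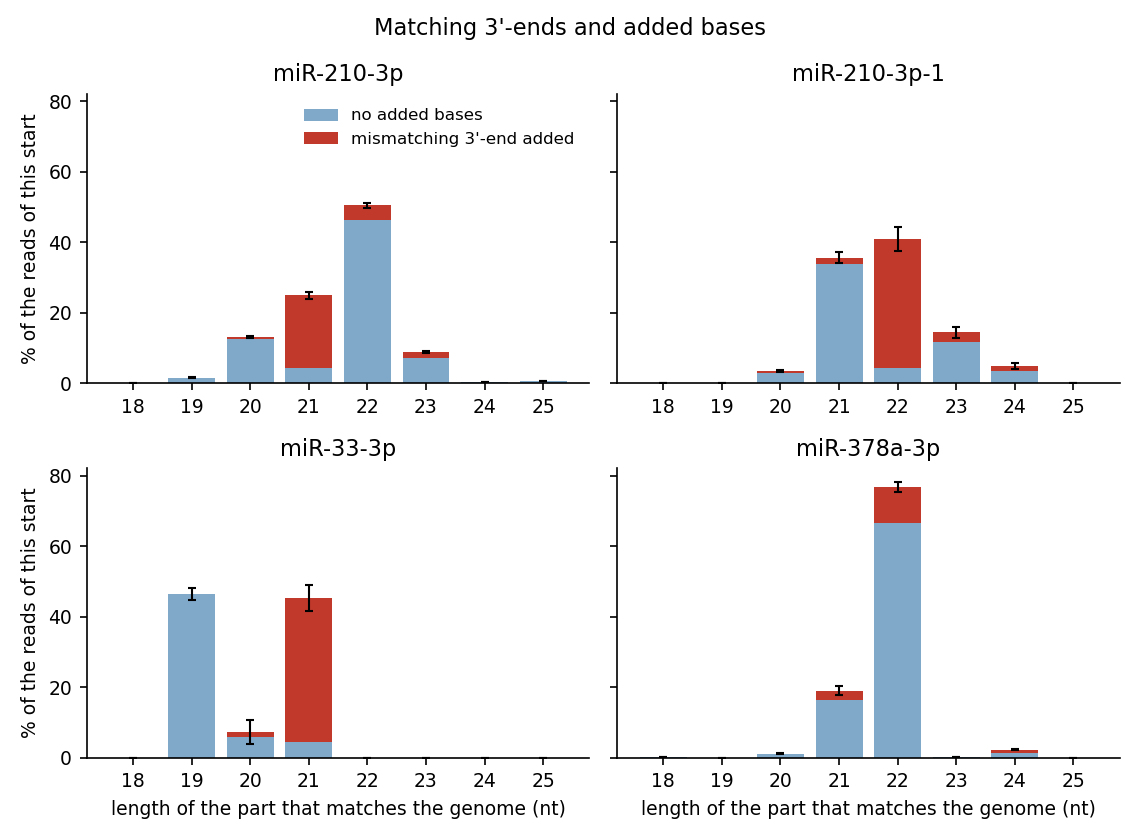
Share of the reads of each start (mean over 3 libraries, error bars SD) by the length of the part that matches the genome, split into reads without (blue) and with (red) a mismatching 3′-end. The red part fills most of the 21-nt bar of miR-210-3p and of miR-33-3p and most of the 22-nt bar of miR-210-3p-1, but only 13.3% of the 22-nt bar of miR-378a-3p.

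Mismatches inside the reads were mainly a C at a genomic A, and this kind of mismatch followed the position in the read. A12C was carried by 21.8%, 23.1% and 23.3% of miR-210-3p reads (22.7 ± 0.78%), by 20.2 ± 0.88% of miR-210-5p and by 20.1 ± 0.52% of miR-378a-3p. The median over 39 placed starts with an A at this position was 18.7% (range 7.11% to 32.6%), so these values were not particular to the members. At position 13 the median was 0.023% over 44 starts.

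Comparing the 5′-starts of 1 arm shows the same genomic base at different read positions. The A at hairpin position 77 of Mir210 was read as C in 22.7 ± 0.78% of miR-210-3p, where it is base 12, but in 0, 0 and 1 reads of the 1837, 1952 and 1616 reads of miR-210-3p-1, where it is base 13. In Mir378a, A12C of miR-378a-3p corresponds to A11C of miR-378a-3p+1, at 9.85 ± 1.29%, and the medians at these positions were 18.7% and 7.42%. A6C of miR-378a-3p, at 2.86%, corresponds to A5C of the +1 form, which was found in 0 reads. miR-33-5p carried A10C in 14.6%, 11.05% and 18.02% of its reads, near the median of 12.9% at that position. What gives rise to the dependence on read position was not tested. A mismatch to G in Mir378a stayed with the genomic base instead. The A at hairpin position 58 was read as G in 3.08 ± 0.42% of miR-378a-3p (base 16) and 2.97 ± 0.49% of miR-378a-3p+1 (base 15). In miR-378a-3p-1 (base 17) this was seen in 4, 2 and 4 reads of 23, 30 and 32.25. These shares of 17.4%, 6.67% and 12.4% were higher but rest on few reads. Over 705 genomic A of the placed starts, the median share of G was 0.031% and the highest 4.97%. The source of this mismatch was not tested.

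**Figure D4:**
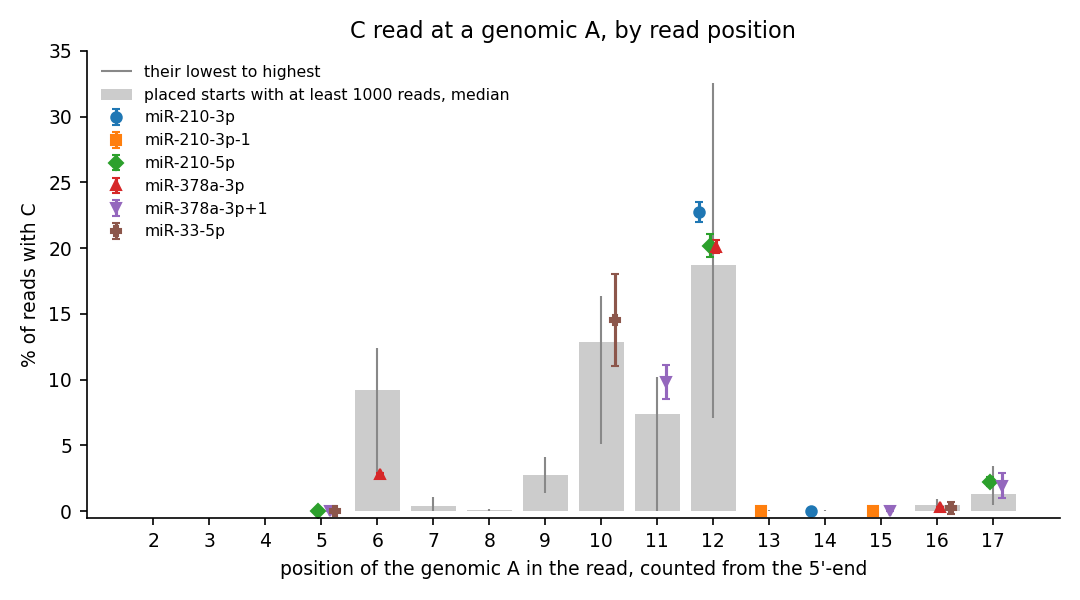
Percentage of reads with C at a genomic A, by the position of that A in the read. Gray bars and lines give the median and the range over placed starts with at least 1000 reads in every library, and symbols give the members (mean ± SD, n = 3). The values are high at positions 6 and 9 to 12 and near 0 at positions 13 to 15, and miR-378a-3p is the lowest at position 6.

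The A6C share of miR-378a-3p, at 2.84%, 2.87% and 2.88%, was the lowest of the 36 starts with an A at position 6 (median 9.20%, highest 12.4%). The mature sequence of a related hairpin, Mir378d, differs from that of Mir378a by A6C, C22T and C23T, with the base of Mir378a first, and its start was placed at position 126147432 of chromosome 10 (minus strand, mm9), so that a miR-378a-3p read with A6C matches Mir378d as well except near its 3′-end. At Mir378d 1159, 1276 and 1310 reads were counted (124 ± 5.27 RPM). Of those with 22 or more bases, 83.0%, 86.2% and 85.3% carried the base C of Mir378a at position 22 (Wilson intervals from 80.5% to 88.1%), and 12.1 ± 1.54% carried the T of Mir378d. Counting the reads of both loci together, the share with C at position 6 was 11.7%, 11.6% and 12.1%, below the highest value of the 36 starts, and the level of miR-378a-3p would be 1254, 1224 and 1250 RPM (1243 ± 16.4 RPM). How many of the reads at Mir378d came from Mir378a was not tested.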

How the data were processed

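Small RNA-seq alignments of 3 MIN6 libraries were analysed. Per the study's methods, the authors trimmed adaptors with cutAdapt 1.0, aligned reads of 14 to 41 nt exactly with Bowtie 0.12.7, merged loci within 65 nt with bedtools 2.17.0 and aligned the remaining reads with SHRiMP 2.2.2, allowing mismatches. The submitters' processing notes name the build mm9. The deposited values are expected counts (estimated counts per distinct alignment), in which the authors divided reads with several loci equally, so near-identical hairpins share reads. Intervals used rounded counts.

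Exact alignments end 1 base early and were extended. Hairpins were placed by the bases that mismatches exclude (at least 15 reads, 20 bits). On simulated data 56 of 60 hairpins were placed correctly and 0 of 60 shuffled ones were placed. In the data, 204 of 2201 hairpins were placed at 1 position and 13 at several. Of the reversed sequences, 4 were placed at 1 or more positions. Mir33, at 12.7 bits, was below the 20 bits and was placed at the start with the most bits, compared with 3.25 bits at the next. Read numbers were also set against the study's list, after scaling each library on miR-210-3p, whose own match was thus fixed. miR-210-5p and miR-210-3p-1 matched within 0.2%. The reference start of miR-378a-3p was defined as the start that matched the list within 0.2%, so its match is no separate check. Every start with at least 10 reads in every library was described. The members and lists were chosen with earlier results of these data known. Of the markers of other cell types looked for, miR-124 (Mir124a-1, a neuronal miRNA) was placed, at 52.8 RPM summed over its starts. The hairpins Mir1a-1, Mir1a-2, Mir206, Mir142, Mir223, Mir150, Mir143 and Mir145a did not reach the threshold for placement, and Mir7a-1, Mir7a-2 and Mir122a were not found by name. No pair of libraries agreed within sampling noise. Python 3.11.15, pandas 2.3.3, scipy 1.17.1 and ViennaRNA 2.7.2 were used.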

Additional observations from a re-analysis of the deposited data

How the results depend on the processing

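Over 27 results and 136 alternative values, 112 stayed within 1 SD of the reported mean and 24 moved by more. The 3 alternatives that left out a library gave 27 values each, all counted among the 112. Their outcome was fixed, since leaving out 1 of 3 values always shifts the mean by less than 1 SD. No conclusion is drawn from them, and all 24 that moved came from the other alternatives. Without alignments that carry a mismatch, levels were 16.6 RPM (miR-33-5p), 3.50 RPM (miR-33-3p), 2.80 RPM (miR-378a-5p), 690.0 RPM (miR-378a-3p), 172 RPM (miR-210-5p) and 614 RPM (miR-210-3p), with miR-210-3p below miR-378a-3p. The 5p share was then 84.1% (Mir33) and 19.7% (Mir210), the share of the start miR-378a-3p 92.1%, and the share of the main length 82.1% (miR-33-3p), 91.7% (miR-378a-5p), 77.7% (miR-378a-3p), 96.5% (miR-210-5p) and 65.3% (miR-210-3p). Relative to reads of 16 to 27 nt, levels were 7.69 RPM (miR-33-3p), 5.42 RPM (miR-378a-5p), 1274 RPM (miR-378a-3p) and 273 RPM (miR-210-5p). With a mismatch in any of the last 3 bases, 3′-NTAs were 3.14% (miR-33-5p), 15.2% (miR-378a-3p), 1.70% (miR-210-5p) and 29.3% (miR-210-3p). miR-378a-3p was 1028 RPM from alignments with a whole-number count, which were taken as single-locus. Shared reads whose parts add up to a whole number also pass this rule. With the reads at Mir378d added, miR-378a-3p was 1243 RPM, an alternative chosen after seeing the data. Alternatives without mismatches leave out tailed reads and reads with C at a genomic A by construction, and the other causes were not tested. Levels without mismatches were still divided by all mapped reads. In replicate 1, 6920618 of 9269795 mapped reads had no mismatch, so these levels fall in part by construction. No paired analysis was possible because there is a single group of libraries.

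Depth limited Mir33, the 5p arm of Mir378a and the starts near 10 reads. Values at Mir378a depend on how reads were divided with Mir378d. Without molecular identifiers, intervals describe counting error alone.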
